A study of Mus musculus with 12 samples.

Results

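Genes of MHC class II antigen presentation were followed through 12 libraries of mouse peritoneal macrophages (PMφs). The genes chosen were H2-Aa, H2-Ab1, H2-Eb1, Cd74, Ciita, H2-DMa, H2-DMb1 and Ctss. They were taken by name for their role, with earlier results of these data known, and are 8 of the 43278 gene rows measured. PMφs were drawn into the peritoneal cavity of wild-type C57BL/6J mice with 4% thioglycolate, harvested on day 4, and kept as adherent cells after 18 h of culture. Cells of male and female littermates aged 8 to 12 weeks, up to 10 mice, were pooled and divided among the groups, so a library stands for a culture of a pool and not for a mouse. The 4 groups of 3 libraries were untreated control PMφs, PMφs given 100 µg/ml human medium oxLDL for 24 h, PMφs given 10 ng/ml ultrapure LPS without oxLDL, and PMφs given the same oxLDL and then the same LPS. All mice carried no engineered allele, and how long LPS was given is not stated for the sequenced cultures. The comparisons ask what lipid loading and inflammatory stimulation each do to the mRNA of this pathway, and what they do together.

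MHC class II molecules carry peptides from endosomes to the cell surface, where CD4 T cells read them. H2-Aa and H2-Ab1 encode the α and β chains of I-A, H2-Eb1 encodes the β chain of I-E, and Cd74 encodes the invariant chain that guides new class II molecules to endosomes and blocks their groove. Ctss encodes cathepsin S, a protease that trims the invariant chain, and H2-DMa and H2-DMb1 encode the chains of the H2-DM exchange factor that loads peptide. Ciita encodes CIITA, the coactivator on which transcription of class II genes depends. In macrophages the pathway is known for its induction by interferon-γ, and mice of the C57BL/6 background lack a working I-E α chain.

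CIITA does not bind DNA itself but is held at class II promoters by factors on a pair of short elements, the X and Y boxes. The promoters of H2-Aa and H2-Eb1 are shown because these genes moved together below, and that of Ctss because its level stayed apart from theirs. They were thus picked after the values were seen, and a link between promoter letters and levels was not tested. Each line gives the 120 bases before the RefSeq start on GRCm38.p6, 5′ to 3′ on the strand of the gene. Capitals mark the letters CTNGNAACT (X) and ATTGG (Y) in the H2 genes, and in Ctss an interferon element, which is GAAA, any 2 bases and GAAA again.
H2-Aa, chr17:34287824-34287943, minus strand: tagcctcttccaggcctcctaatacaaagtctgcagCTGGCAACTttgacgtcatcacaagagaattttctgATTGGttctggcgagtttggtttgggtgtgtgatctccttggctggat
H2-Eb1, chr17:34305747-34305866, plus strand: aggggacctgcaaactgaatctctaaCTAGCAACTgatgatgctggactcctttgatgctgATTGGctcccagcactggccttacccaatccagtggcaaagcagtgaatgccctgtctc
Ctss, chr3:95526666-95526785, plus strand: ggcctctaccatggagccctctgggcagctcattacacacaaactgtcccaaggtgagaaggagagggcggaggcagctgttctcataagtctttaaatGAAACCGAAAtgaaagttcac

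In H2-Aa the X letters began 84 and the Y letters 48 bases before the start, so that their first bases lay 36 apart. In H2-Eb1 the distances were 94 and 59 bases, 35 apart. H2-DMb1 had the X letters CTAGTAACT 97 bases and the Y letters 61 bases before its start, again 36 apart. The table of RefSeq promoters held 6 entries for 5 of the 8 genes, and neither of the 2 entries of H2-DMa held such a pair. H2-Ab1, Cd74 and Ciita had no entry. Over the 32851 promoters of the table, each reaching from 250 bases before to 50 after a start, the X letters were found on either strand in 4.10%, the Y letters in 37.4% and the interferon letters in 3.44%. The X and Y letters stood 30 to 45 bases apart on the gene's strand in 14 promoters, or 0.0426%, of which 3 were those of H2-Aa, H2-Eb1 and H2-DMb1. These letters and distances were set after the sequences had been read, and a match is a description of letters, not a measured binding site.

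The genes themselves lie on GRCm38 as follows. H2-DMa (chr17:34119541-34139101, plus strand), H2-DMb1 (chr17:34153072-34160230, plus), H2-Ab1 (chr17:34257689-34269419, plus), H2-Aa (chr17:34282744-34287823, minus) and H2-Eb1 (chr17:34305867-34316674, plus) form a cluster in the MHC. Cd74 is on chr18:60803848-60812652, Ciita on chr16:10480059-10528418 and Ctss on chr3:95526786-95556403, all on the plus strand.

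The values are counts that the authors divided by 1 factor per library and rounded, called normalized counts here. They imply 16.7 M to 26.2 M reads on genes per library. They summed to 17.2 M to 17.7 M in the libraries without LPS and to 22.1 M to 26.4 M in those with LPS, so every LPS effect below depends in size on that scaling. All 8 macrophage markers that were checked, led by Lyz2, reached 10 in every library. Libraries with the same replicate number moved together, and those of number 3 stood apart in having the highest class II values of their group in most cases, so results are also given without them.

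The α and β chain genes of I-A had the same order of groups at its ends, lowest with oxLDL alone and highest with LPS alone. H2-Aa had normalized counts of 1335, 1260 and 2841 in control libraries 1, 2 and 3, of 987, 901 and 1321 with oxLDL, of 3020, 2062 and 4868 with LPS, and of 1676, 1494 and 1858 with oxLDL and LPS. The oxLDL and LPS groups overlapped the controls, while every library with both agents lay below every library with LPS alone. H2-Ab1 had 983, 1084 and 2179 in control, 778, 693 and 1093 with oxLDL, 3375, 2964 and 6048 with LPS, and 1908, 2181 and 2356 with both. Every LPS library of H2-Ab1 was above every control library and above every library with both agents.

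The I-E β chain gene and the invariant chain gene followed the same order at its ends. H2-Eb1 had 791, 668 and 1652 in control, 556, 409 and 715 with oxLDL, 1770, 997 and 2700 with LPS, and 1005, 720 and 1014 with both. Only the groups with oxLDL and with both agents, among neighbours in that order, were free of overlap. Cd74 had 3678, 4934 and 7035 in control, 3095, 3767 and 3398 with oxLDL, 9770, 8611 and 15553 with LPS, and 5208, 6481 and 6088 with both. Here the LPS libraries lay above all others, and control libraries overlapped those with oxLDL and those with both.

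The genes of the peptide exchange factor spanned a smaller range. H2-DMa had 272, 253 and 454 in control, 292, 268 and 306 with oxLDL, 423, 260 and 576 with LPS, and 400, 284 and 418 with both, with overlap between all neighbours in the order. H2-DMb1 had 465, 423 and 623 in control, 417, 419 and 479 with oxLDL, 749, 757 and 1181 with LPS, and 691, 677 and 671 with both. Its 3 libraries with both agents fell into the gap between the highest control and the lowest LPS library. H2-DMb2, a close copy of H2-DMb1, was at 2 to 12 in every library, and reads that fit both copies make the values of each uncertain.

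Ciita, which encodes the coactivator, had the lowest values. They were 43, 66 and 146 in control, 24, 46 and 73 with oxLDL, 131, 254 and 321 with LPS, and 60, 175 and 157 with both. Neighbouring groups overlapped throughout, and libraries of number 1 were the lowest of each group. Ctss had by far the highest values, at 123709, 134236 and 139468 in control, 130600, 133957 and 119787 with oxLDL, 113104, 137594 and 144156 with LPS, and 122627, 138277 and 122373 with both. All 4 groups of Ctss overlapped, and their means lay between 127759 and 132471.

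**Figure D1:**
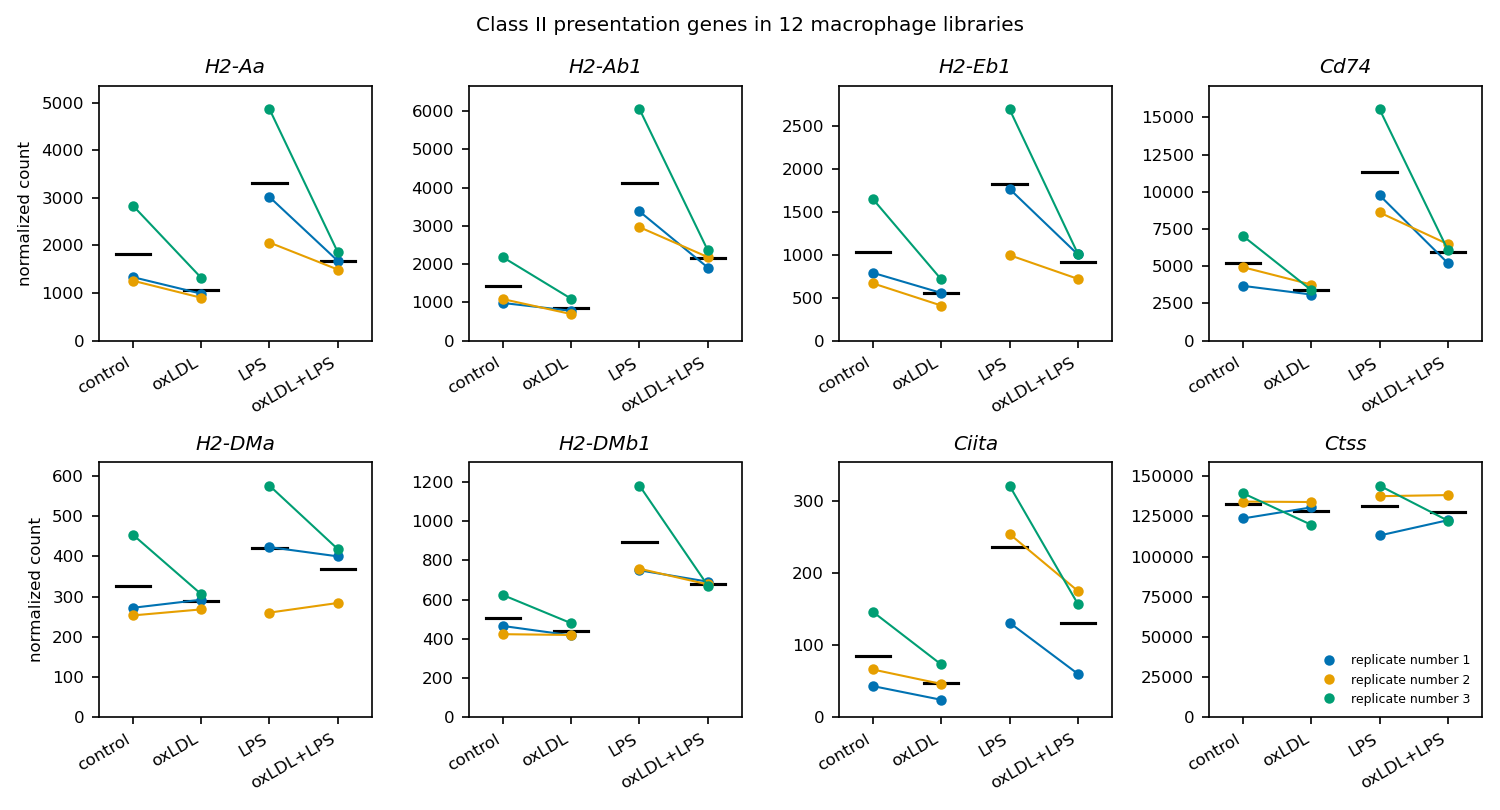
Normalized counts (vertical axes, linear, from 0) of the 8 genes in control, oxLDL, LPS and oxLDL+LPS libraries, with a point per library, lines joining libraries of the same replicate number without and with oxLDL, and a bar at each mean. For H2-Aa, H2-Ab1, H2-Eb1, Cd74, H2-DMb1 and Ciita all 3 lines run down from control to oxLDL and from LPS to oxLDL+LPS, and for Ctss they cross.

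Levels of different genes can be set side by side only per length, as normalized counts per kb of merged exons. In control PMφs these were 97549 ± 5910 (SD, n = 3) for Ctss, 3106 ± 1010 for Cd74, 551 ± 258 for H2-Ab1, 533 ± 276 for H2-Eb1 and 477 ± 235 for H2-Aa. H2-DMb1 had 299.6 ± 62.7 per kb, H2-DMa 94.6 ± 32.2 and Ciita 8.91 ± 5.67. The means of the 3 chain genes lay close together beside these SDs. The SDs are spreads across libraries that the genes share, so they do not test a difference between genes. The place of H2-Ab1 among them rests on the length used, since it had 1168 per kb of its longest transcript. Cd74 transcripts outnumbered those of each chain gene, and Ctss transcripts outnumbered all others.

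With oxLDL alone, the 3 chain genes, Cd74 and Ciita were lower than in control PMφs, and the 5 decreases passed the test only when libraries of the same replicate number were compared with each other. The log2 fold changes, on log2 of the normalized count plus 1, were −0.67 for H2-Aa, −0.66 for H2-Ab1, −0.81 for H2-Eb1, −0.56 for Cd74 and −0.77 for Ciita. H2-DMb1 (−0.18), H2-DMa (−0.13) and Ctss (−0.05) passed in neither fit. In bulk RNA, fewer cells that express class II and less RNA per cell cannot be told apart.

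H2-Aa differed by −0.44, −0.48 and −1.10 on the log2 scale in replicate numbers 1, 2 and 3, H2-Ab1 by −0.34, −0.64 and −0.99, and H2-Eb1 by −0.51, −0.71 and −1.21. Cd74 differed by −0.25, −0.39 and −1.05, and Ciita by −0.82, −0.51 and −0.99. Number 3, which had the highest control values, also had the largest decreases. Without regard to the numbers, oxLDL and control libraries overlapped for all 8 genes, and the smallest exact two-sided permutation p was 0.2, with no overlap in the lower direction for 3.91% of all genes. Those 5 genes and H2-DMb1, 6 in all, were lower in all 3 numbers, which held for 19.4% of the 12751 genes tested.

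In limma without a block, 0 of the 8 genes and 0.00% of all genes had a Benjamini-Hochberg adjusted p under 0.1, while 1 of the 8, Cd74, and 381 of all genes had an unadjusted p under 0.05. The standard errors were 0.31 for H2-Aa and H2-Ab1, 0.35 for H2-Eb1, 0.22 for Cd74 and 0.53 for Ciita. With the replicate number as a block they became 0.10, 0.09, 0.10, 0.11 and 0.16, and limma gave Benjamini-Hochberg adjusted p of 0.00832, 0.00529, 0.00223, 0.0254 and 0.0309. In both fits limma draws the variance of a gene toward that of all genes. The blocked standard errors are thus not the spread of each gene's own 3 pairs, which for H2-Aa ran from −0.44 to −1.10. These 5 of 8 compare with 2.92% of all genes called lower in that fit. The median log2 fold change of the 8 genes was −0.61, against −0.01 over all genes. The blocked fit called 4 of the 8 without number 1, 2 (H2-Aa and H2-Eb1) without number 2 and 5 without number 3. For Ctss the 95% interval in the blocked fit ran from −0.29 to 0.20, and for H2-DMa from −0.39 to 0.13.

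With LPS alone, H2-Ab1 and Ciita rose most, with log2 fold changes against control of 1.57 (standard error 0.36) and 1.55 (0.48). Cd74 rose by 1.12 (0.28), H2-Aa by 0.89 (0.38) and H2-DMb1 by 0.82 (0.22). H2-Eb1 differed by 0.82 (0.43) and H2-DMa by 0.34 (0.32), neither of which passed the test without the block, and Ctss by −0.02 (0.20). All but Ctss, 7 of the 8 genes, were higher in LPS in all 3 replicate numbers, against 39.1% of all genes.

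The adjusted p in limma with Benjamini-Hochberg adjustment were 0.00704 for H2-Ab1, 0.0272 for Ciita, 0.0115 for Cd74, 0.0862 for H2-Aa and 0.0137 for H2-DMb1. The 5 of 8 called higher stand against 31.4% of the 13023 genes tested, and the median of the 8 was 0.85 against −0.00 over all genes. With the replicate block, 7 of 8 were called, against 34.6% of all genes called higher. H2-Eb1 (limma adjusted p = 0.00111) and H2-DMa (limma adjusted p = 0.0645) were the 2 that joined. H2-Ab1, Cd74 and H2-DMb1 had LPS libraries that lay wholly above the controls (exact two-sided permutation p = 0.1, the smallest that 3 against 3 allow), as did 32.1% of all genes.

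Without a block, the call of H2-Aa was lost when library 1 of either group, control library 2 or LPS library 3 was left out, with values of 0.91 and 0.72 without the LPS and control libraries 1, 0.68 and 0.57 without the other 2. H2-Eb1 was called without LPS library 2 (1.19) or control library 3 (1.21). H2-DMa was called without LPS library 2 (0.65), and its left-out values ran from 0.074, without LPS library 3, to 0.65. Over all genes the split was 4093 higher and 3946 lower. It became 3241 and 4833 with quantile normalization and 2170 and 7224 with equal library sums, which moved the median of all genes to −0.14 and −0.48. H2-Ab1 and Ciita were called higher under both scalings, at 1.13 and 1.66 with quantile normalization and at 1.08 and 1.07 with equal sums. Cd74 kept its call with equal sums (0.64) and lost it with quantile normalization (0.42), and H2-DMb1 kept its call with quantile normalization (0.65) and lost it with equal sums (0.33). H2-Aa lost its call under both, at 0.43 and 0.40. H2-DMa turned to −0.14 under equal sums, and Ctss was called lower under both, at −0.48 and −0.50.

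When LPS was given after oxLDL, the chain genes, Cd74 and Ciita reached lower values than with LPS alone, and by nearly the same log2 step. The log2 fold changes of oxLDL+LPS against LPS were −0.90 for H2-Aa, −0.87 for H2-Ab1, −0.90 for H2-Eb1, −0.89 for Cd74 and −0.89 for Ciita. As with oxLDL alone, these 5 decreases passed the test only in the fit with the replicate block. H2-DMb1 (−0.36), H2-DMa (−0.14) and Ctss (−0.04) passed in neither fit.

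H2-Aa differed by −0.85, −0.46 and −1.39 in replicate numbers 1, 2 and 3, H2-Ab1 by −0.82, −0.44 and −1.36, and H2-Eb1 by −0.82, −0.47 and −1.41. Cd74 differed by −0.91, −0.41 and −1.35, and Ciita by −1.11, −0.53 and −1.03. Within a number H2-Aa, H2-Ab1, H2-Eb1 and Cd74 thus moved by steps close to each other, while the steps of the 3 numbers were far apart. Of the 8 genes, 6 were lower in all 3 numbers, against 24.4% of all genes. H2-Aa, H2-Ab1, Cd74 and H2-DMb1 had libraries with both agents wholly below those with LPS (exact two-sided permutation p = 0.1), as did 6.39% of all genes.

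In limma without a block, 0 of the 8 genes and 0.00% of the 12786 tested passed an adjusted p of 0.1, with adjusted p from 0.698 for Cd74 to 0.989 for Ctss. At an unadjusted p under 0.05 in limma there were 890 genes, among them H2-Aa, H2-Ab1, H2-Eb1 and Cd74. With the block the standard errors fell from 0.29 to 0.14 for H2-Aa, from 0.26 to 0.14 for H2-Ab1, from 0.34 to 0.15 for H2-Eb1, from 0.23 to 0.15 for Cd74 and from 0.48 to 0.14 for Ciita. The limma adjusted p were then 0.0101, 0.0107, 0.0107, 0.0118 and 0.0101. They too rest on variances drawn toward those of all genes, while the own steps of H2-Aa ran from −0.46 to −1.39. The 5 of 8 called lower compare with 8.74% of all genes, and the median of the 8 was −0.88 against −0.01. In the blocked fit without number 1 or without number 3, 0 of the 8 genes were called and at most 15 of all genes, with 1542 to 1603 genes at an unadjusted p under 0.05, whereas without number 2 there were 6 of the 8. Without LPS library 3 the value of H2-Aa was −0.66, that of Cd74 −0.66 and that of Ciita −0.82 in that fit.

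**Figure D2:**
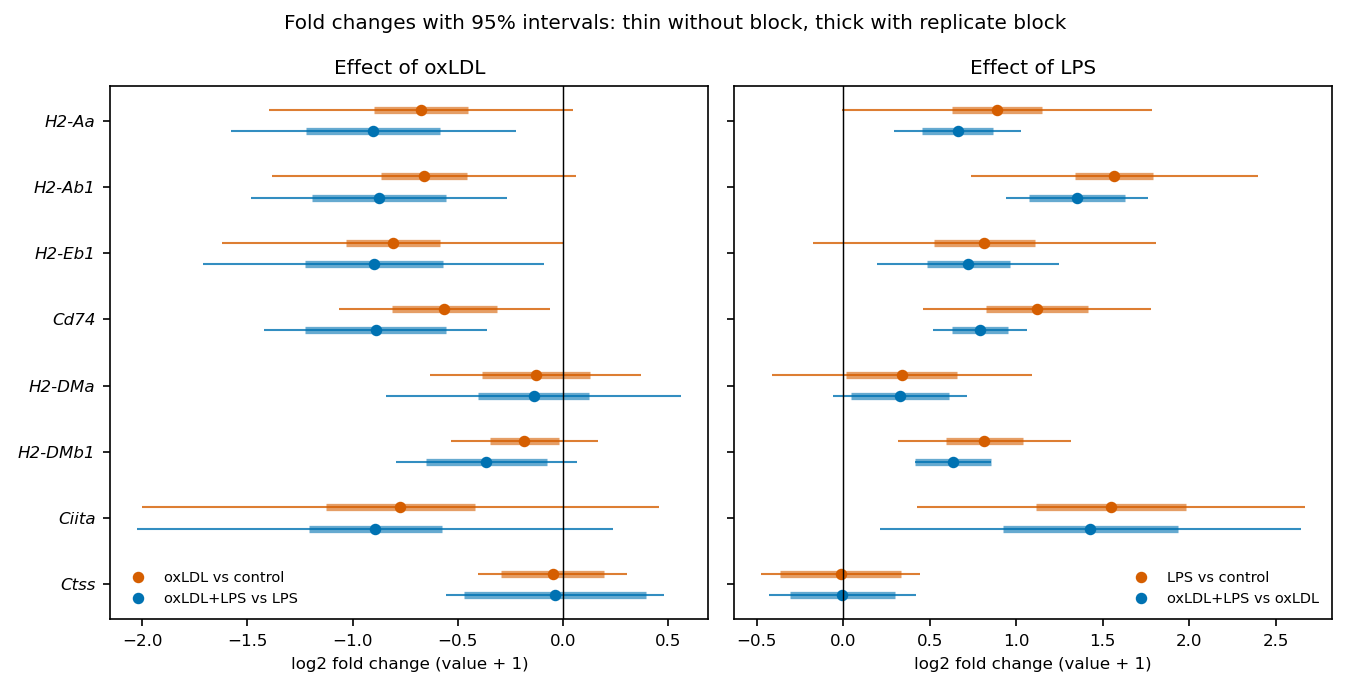
Log2 fold changes of normalized count plus 1 (horizontal axis) of the 8 genes for oxLDL without and with LPS (left) and for LPS without and with oxLDL (right), with 95% intervals from limma drawn thin without and thick with the replicate block. With the block the oxLDL intervals of H2-Aa, H2-Ab1, H2-Eb1, Cd74 and Ciita lie below 0 in both comparisons, and those of H2-DMa and Ctss include 0.

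With oxLDL+LPS, 6 of the 8 genes were higher than with oxLDL alone, and H2-DMa and Ctss did not pass. H2-Ab1 rose by 1.35 (standard error 0.17) and Ciita by 1.43 (0.52) on the log2 scale, Cd74 by 0.79 (0.12), H2-Eb1 by 0.72 (0.22), H2-Aa by 0.66 (0.16) and H2-DMb1 by 0.63 (0.09). The limma adjusted p with Benjamini-Hochberg adjustment were 0.000645, 0.0565, 0.00116, 0.032, 0.0109 and 0.00126 in that order. H2-DMa differed by 0.33 (0.17, limma adjusted p = 0.146) and Ctss by −0.00 (0.18). H2-Aa, H2-Ab1, H2-Eb1, Cd74 and H2-DMb1 had no overlap between the groups, as did 29.6% of all genes in the higher direction.

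The 6 of 8 genes called higher stand against 28.2% of the 12900 genes tested, and the block added H2-DMa (limma adjusted p = 0.0509) to give 7, against 32.0%. All but Ctss were higher in all 3 numbers, against 37.0%. The call of Ciita was lost without oxLDL library 1 or 2 or without oxLDL+LPS library 2 or 3 in the fit without a block, and its values then ran from 1.02 to 1.47, while H2-DMa was called at 0.50 without oxLDL+LPS library 2. The split over all genes was 3633 higher and 3397 lower, or 2843 and 4286 with quantile normalization and 2031 and 6660 with equal library sums, which moved the median of all genes to −0.13 and −0.41. Quantile normalization left the same 6 genes called. Under equal sums H2-Ab1 (0.96), Cd74 (0.40) and H2-DMb1 (0.24) were called higher, H2-Aa (0.27), H2-Eb1 (0.33) and Ciita (1.04) lost their calls, Ctss was called lower at −0.40 and H2-DMa was at −0.061. In a fit of all 12 libraries H2-Ab1, Cd74, H2-DMb1 and Ciita were called.

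Whether oxLDL altered the response of these genes to LPS is asked by the interaction, fitted on all 12 libraries. None of the 8 genes and 0.00% of 13482 genes passed an adjusted p of 0.1 in limma, with or without the block, and 418 and 967 genes had an unadjusted p under 0.05 without and with it. With the block the difference between the LPS responses was −0.23 (95% interval −0.75 to 0.30) for H2-Aa, −0.22 (−0.71 to 0.28) for H2-Ab1, −0.09 (−0.64 to 0.46) for H2-Eb1 and −0.33 (−0.87 to 0.22) for Cd74. For Ciita it was −0.12 (−0.76 to 0.52). These intervals include 0 and values on both sides of it, so neither a weaker nor a stronger response to LPS in PMφs with oxLDL was shown.

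Ratios between 2 genes within a library do not depend on how libraries were scaled, and 6 were computed after the values had been seen. The ratio of H2-Ab1 to H2-Aa was 0.736, 0.860 and 0.767 in control libraries 1, 2 and 3, 0.788, 0.769 and 0.827 with oxLDL, 1.12, 1.44 and 1.24 with LPS, and 1.14, 1.46 and 1.27 with both. It was above 1 in every library with LPS and below 1 in every library without. The difference was 0.68 on the log2 scale for LPS against control and 0.69 for oxLDL+LPS against oxLDL (exact two-sided permutation p = 0.1 for each, the smallest possible). For oxLDL against control it was 0.02 (exact permutation p = 0.8) and for oxLDL+LPS against LPS 0.03 (exact permutation p = 0.7).

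The ratio of H2-Eb1 to H2-Aa had means of 0.568, 0.520, 0.541 and 0.542 in control, oxLDL, LPS and oxLDL+LPS PMφs, and that of Cd74 to H2-Aa had means of 3.05, 3.30, 3.54 and 3.57, with overlap in every comparison. The ratio of H2-DMb1 to H2-DMa was 1.58, 1.52, 2.24 and 1.91, and LPS libraries lay wholly above controls by 0.48 on the log2 scale (exact permutation p = 0.1), and oxLDL+LPS libraries above oxLDL libraries by 0.31 (exact permutation p = 0.1). The gaps were narrow, with a lowest ratio of 1.77 with LPS against a highest of 1.71 in control, and 1.61 with both against 1.57 with oxLDL. The ratios of Cd74 and of H2-Ab1 to Ciita overlapped in every comparison. With LPS, H2-Ab1 thus moved further than H2-Aa, and H2-DMb1 further than H2-DMa with only a narrow gap between libraries, whereas with oxLDL no ratio separated the groups.

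**Figure D3:**
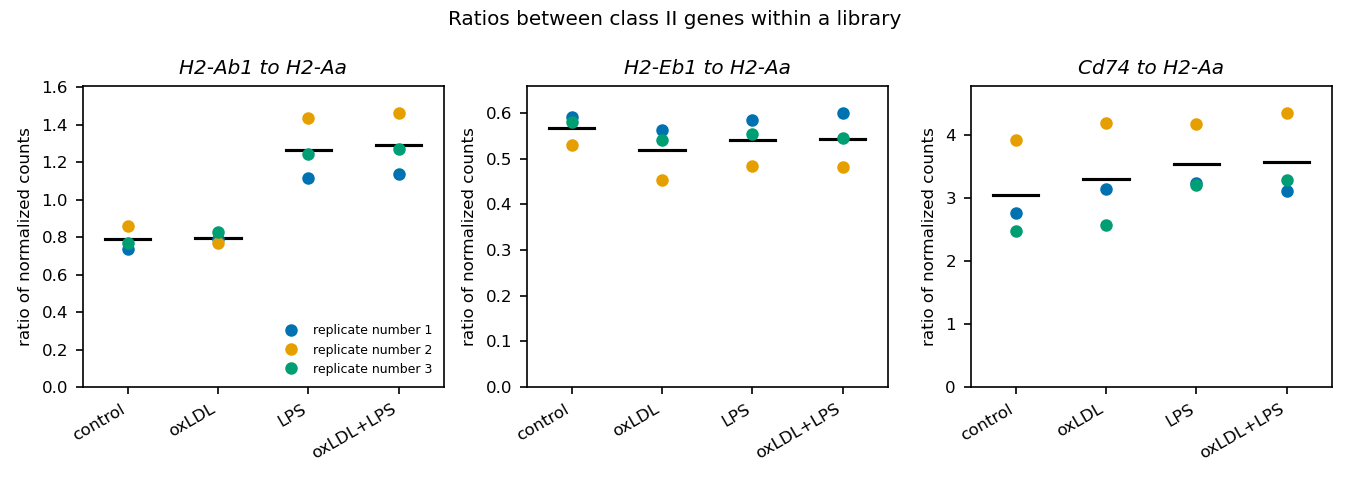
Ratio of the normalized counts of H2-Ab1, H2-Eb1 and Cd74 to that of H2-Aa within each library (vertical axes, linear, from 0), with a point per library coloured by replicate number and a bar at each mean. The ratio of H2-Ab1 to H2-Aa lies between 0.736 and 0.860 without LPS and between 1.12 and 1.46 with LPS.

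Among the proteins that bind class II promoters with CIITA, LPS raised 5 of 10 genes and lowered 2, against 31.4% of all genes called higher and 30.3% called lower, with a list median of 0.25 on the log2 scale. Rfx5, the DNA-binding subunit of the RFX complex on the X box, rose by 2.11, Kat2b, an acetyltransferase, by 1.60 and Nfyb, a subunit of the Y box factor, by 1.06 (limma adjusted p = 4.89e-06, 4.59e-06 and 0.000169). Creb1 rose by 0.23 and the acetyltransferase gene Crebbp by 0.26, but with equal library sums they were at −0.25 and −0.22. The other RFX subunits Rfxap and Rfxank fell by 0.46 and 0.69, so the 3 subunit genes did not share a direction. Under oxLDL, only Crebbp of the 10 genes passed the test, in the blocked fit alone, at −0.22 against control and −0.43 against LPS. Over all genes that fit called 2.92% and 8.74% lower.

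Upstream of Ciita, LPS raised 12 of the 15 genes tested and lowered 1, against 31.4% and 30.3% of all genes, and the list median was 1.02. Irf1, a factor that binds the interferon-responsive Ciita promoter, rose by 5.11 and Jak2, which signals from the interferon-γ receptor, by 3.93. Socs1, an inhibitor of that signal, rose by 6.23 and Il10, which restrains macrophage activation, by 4.02. The receptor gene Ifngr2 rose by 0.37, which turned to −0.22 with quantile normalization and −0.11 with equal sums, and Ifngr1 fell by 0.57. Ifng itself was at 0 in all 6 libraries without LPS, at 12, 14 and 6 with LPS and at 1, 10 and 9 with both. Others that rose were Jak1 (0.81), Irf2 (1.38), Usf1 (0.69), Spi1 (1.02), Prdm1 (2.02) and Tgfb1 (0.55), and Irf4 and Irf8 did not pass. Tgfb1 was at −0.20 with quantile normalization and 0.06 with equal sums, and Jak1 lost its call with the former (0.08).

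Under oxLDL, 0 of the 14 upstream genes tested passed in either fit against control. Of all genes, 0.00% passed without the block and 4.71% with it. Against LPS alone, the blocked fit called 4 of 16 lower in oxLDL+LPS PMφs, against 8.74% of all genes, and the fit without it 0. Socs1 fell by 1.03, Irf4 by 0.95, Irf8 by 0.83 and Jak2 by 0.38 in that fit (limma adjusted p = 0.00648, 0.0427, 0.0389 and 0.0522). Socs1 had 951, 1103 and 1831 with LPS and 364, 762 and 810 with both. Irf8 had 2918, 2836 and 5162 with LPS and 1797, 2442 and 1731 with both, so that number 3 was again the highest with LPS. Irf1 was at −0.25 and did not pass. Against oxLDL alone, 10 of 15 rose with oxLDL+LPS and 2 (Ifngr1 and Irf8) fell without a block, against 28.2% and 26.3% of all genes, and 12 and 3 with it, against 32.0% and 31.4%.

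**Figure D4:**
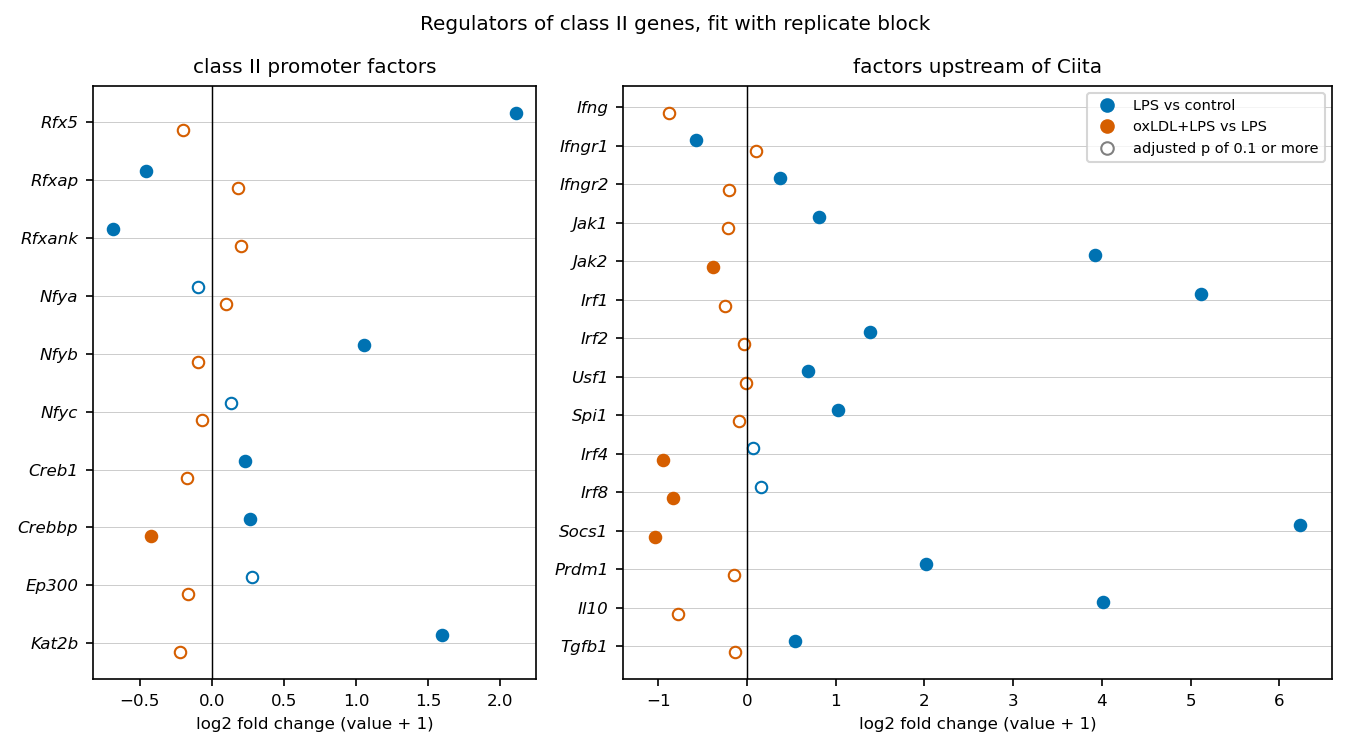
Log2 fold changes of normalized count plus 1 (horizontal axis) of class II promoter factors and of factors upstream of Ciita in limma with the replicate block, for LPS against control and oxLDL+LPS against LPS, with filled points at an adjusted p under 0.1. Socs1 is at 6.23 and −1.03 and Irf1 at 5.11 and −0.25.

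Of the genes of endosomal antigen processing, LPS raised 2 of 11 and lowered 3, shares that do not exceed the 31.4% and 30.3% of all genes. Sppl2a, the protease that clears the last fragment of the invariant chain from the membrane, rose by 2.33 and Ctsz by 0.47 (−0.43 with quantile normalization and −0.02 with equal sums), while Lgmn, an endopeptidase that starts its breakdown, fell by 0.65, Ifi30, a thiol reductase, by 0.60 and Ctsk by 0.60. The block added Ctsd, lower by 0.57. With oxLDL, 0 of 11 passed in either comparison and in either fit. The blocked fit called 4.71% of all genes for oxLDL against control and 13.2% for oxLDL+LPS against LPS. The other 6 genes, among them the cathepsin genes Ctsb and Ctsl, passed in no LPS direction without the block, and neither did Ctss. With oxLDL+LPS against oxLDL, the same numbers of genes passed without the block, 2 higher and 3 lower, and of the promoter factors 3 were higher and 1 lower. Over all genes the shares in that fit were 28.2% and 26.3%.

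Among genes of class II surface turnover and the CD74 partners, Cd83, whose protein holds class II at the surface, rose with LPS from 717, 783 and 712 in control to 2543, 5539 and 5192, and was lower by 0.86 with oxLDL+LPS than with LPS in the blocked fit. Of the 7 turnover and tetraspanin genes with a value, LPS also raised Cd81 (0.44) and Cd82 (0.53) and lowered Cd37, but with equal sums Cd81 was at −0.05 and Cd82 at 0.05. With Cd83 these were 3 higher and 1 lower, against 31.4% and 30.3% of all genes. Of the 5 CD74 ligands and co-receptors, Mif, a ligand of CD74, rose by 0.41 (−0.07 with equal sums) and Cd44, its signalling partner, by 1.49, and Cxcr2 and Cxcr4, chemokine receptors through which MIF also signals, fell by 3.95 and, for Cxcr4, fell by 5.27. These 2 higher and 2 lower stand against the same 31.4% and 30.3%. The blocked fit added Ddt, lower by 0.32 with LPS, called Cxcr2 (−0.81) and Cxcr4 (−0.38) lower with oxLDL, and Cd44 lower by 0.48 with oxLDL+LPS than with LPS. In that fit 2.92% of all genes were called lower with oxLDL and 8.74% with oxLDL+LPS against LPS. Of the other class II genes, H2-Oa and H2-Ob, whose product restrains H2-DM, rose with LPS from 1 to 4 and 2 to 7 to 13 to 25 and 14 to 23. H2-Ea-ps, the row of the defective I-E α chain, was at 0 or 1 in every library.

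Over the 12 libraries and the 11182 genes at 10 or more in all of them, H2-DMb1 was the gene most like the mean log2 level of H2-Aa, H2-Ab1, H2-Eb1 and Cd74, with Pearson's r of 0.944. It was followed by Pank3, N4bp2l2, Ncoa3, Adprm, Tmem50b, Tmem123, Rab8b, Sos1 and Atp11a, at 0.944 to 0.914. Ciita stood at rank 103 (0.854), H2-DMa at 485 (0.790) and Ctss at 5063 (0.182). These libraries share the 4 groups and the 3 pools, so the likeness is a description.

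After the mean of each replicate number within its LPS state was subtracted, which leaves the effect of oxLDL, the 10 most alike were Lsp1, Entpd1, Pmvk, Clu, Ids, Clasp2, Mtus1, Ythdf3, Myo10 and Epas1, with r of 0.995 to 0.990. On this scale Ciita was at rank 178 (0.955), H2-DMb1 at 546 (0.899), H2-DMa at 1821 (0.737) and Ctss at 2823 (0.584). Each of these r rests on 6 pairs of libraries.

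Apart from Cd22 and Fscn1, markers of other cells that carry class II were low, and some moved with the groups. The B cell list summed to 1361 to 2176 in control, 1535 to 2255 with oxLDL, 662 to 1148 with LPS and 810 to 1227 with both, nearly all of it Cd22. Of its defining markers, Ms4a1 was at 5 to 24 in every library and Pax5 at 1 to 5. Cd22 was lower with LPS by 1.16 on the log2 scale, while Ms4a1 was higher by 0.86 in the blocked fit, and the part of B cells in the results was not tested.

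The dendritic cell list summed to 448 to 1504 in control, 511 to 1551 with oxLDL, 1962 to 2751 with LPS and 919 to 2106 with both, mostly as Fscn1. Flt3 was at 0 to 6, Xcr1 and Cd209a at 0 to 13 and Zbtb46 at 16 to 84. In the blocked fit Batf3 was lower by 1.28 and Fscn1 by 0.69 with oxLDL+LPS than with LPS, against 8.74% of all genes called lower. The rest of the list went both ways in that comparison. Ccr7 differed by −0.60, Flt3 by −0.41, Zbtb46 by −0.21 and Dpp4 by −0.13, but Xcr1 by 0.57, Clec9a by 0.44 and Cd209a by 0.06. The part of such cells in the results was not tested.

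The list of large peritoneal macrophages, led by Gata6, summed to 452 to 776 in control and 460 to 668 with oxLDL. With LPS it summed to 607 to 1029 and with both to 469 to 712. For oxLDL+LPS against LPS, Timd4 differed by −0.67, Selp by −0.46, Alox15 by −0.45 and Garnl3 by −0.44. Gata6 differed by −0.41 there, F5 by −0.09 and Icam2 by 0.21. The list of small peritoneal macrophages, led by Itgax, summed to 9762 to 11735 in control and 8638 to 11971 with oxLDL. With LPS it summed to 8222 to 12756 and with both to 8186 to 11986. Ccr2, of the small macrophage list, was lower with oxLDL in the blocked fit (−1.03) and with LPS (−2.39). The rest of that list did not share this. Irf4 differed by −0.11 with oxLDL and 0.07 with LPS, Retnla by −0.33 and −0.16, and Itgax by −0.04 and 0.01. Cd226, near 0 throughout, differed by 1.19 with each. T and NK cell markers summed to 3 to 38, with Ncr1 at 0 in 11 of 12 libraries. The macrophage list summed to 231967 to 347950. Csf1r (−0.27) and Fcgr1 (−0.35) were lower with oxLDL in the blocked fit, against 2.92% of all genes called lower. With oxLDL, Cd14 differed by −0.24, Cd68 by −0.06, Lyz2 by −0.04, Mertk by −0.00 and Itgam by 0.03, and Adgre1 had means of 6991 in control and 6344. For oxLDL+LPS against LPS, Csf1r differed by 0.23, but Fcgr1 by −0.44 and Cd14 and Mertk by −0.35 each. Itgam differed by −0.13, Cd68 by −0.05 and Lyz2 by −0.02 there. Adgre1 had means of 20812 with LPS and 21000 with both. The part of these markers in the class II results was not tested.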

How the data were processed

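Poly(A) libraries were made with a directional kit, and the authors counted reads per GENCODE gene with featureCounts after trimming (Trimmomatic 0.32) and alignment to GRCm38 (STAR 2.5.1b). Their deposited signal keeps to whole numbers with the spacing of counts that were each divided by a factor of the library. How the factors were set and whether counting used the strand are not given in the sources used here, so an overlapping gene on the opposite strand could add to a value. Of 43278 rows, 18273 were at 0 throughout, and 25 had symbols turned into dates, so the March genes of the turnover list were not assigned. Implied reads were 16.7 M to 26.2 M per library. Intervals for counting error alone were not given, since libraries differed by more than counting.

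Groups were compared with limma 3.58.1 in R 4.3.3 (lmFit, eBayes with trend) on log2 of the value plus 1, over genes at 10 or more in at least 3 of the libraries compared, with Benjamini-Hochberg adjustment over all of them and calls at an adjusted p under 0.1, the threshold of the study's methods. A test for raw counts was not used because the values are scaled. Each comparison was fitted on its own 6 libraries and the interaction on all 12, and all 8 genes passed the filter every time. LPS and oxLDL were compared with the same control libraries. The fits were tested on simulated data.

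Replicates are numbered 1 to 3 in each group by the labels, and the methods describe pools of littermate cells divided among the groups. Over 11186 genes, deviations from the group means had correlations of 0.305 to 0.733 between libraries of the same number in different groups and of at most 0.0710 between different numbers. The numbers were therefore taken to pair the libraries, and a fit with the replicate block stands beside each result that it changes. Nothing states that the 3 pools came from separate days. The permutation p-values rest on these libraries alone. In limma the variance of each gene is drawn toward a trend over all genes, so its p-values do not measure that gene's own spread alone.

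The 8 genes, the gene lists and the markers were chosen with earlier results of these data known. Genes named outside the 8 are members of those lists that passed a test or were at 0, the markers, and the 10 genes with the highest correlation with the class II level, over all 12 libraries and after the mean of each replicate number within its LPS state was subtracted. Some list members that did not pass are named for comparison, chosen after their values were seen. Some list members are counted but not reported here by name. Positions came from GENCODE by symbol and promoters from RefSeq (GRCm38.p6). Alternatives were the block, no filter, a pseudocount of 8, all 12 libraries in one fit, quantile normalization, equal library sums and each library left out. Leaving out a library in the blocked fit was added after the values were seen.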

Additional observations from a re-analysis of the deposited data

How the results depend on the processing

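The replicate block changed the number of the 8 genes called from 0 to 5 for oxLDL against control and from 0 to 5 for oxLDL+LPS against LPS, and the number of all genes called from 0 to 601 and from 0 to 1682. It changed 2 further calls for LPS against control and 1 for oxLDL+LPS against oxLDL, which are named with those results, and none for the interaction. With all 12 libraries in one fit, 29 genes were called for oxLDL+LPS against LPS. Scaling turned the direction of a few small values. With equal library sums, H2-DMa was at −0.14 for LPS against control, at −0.061 for oxLDL+LPS against oxLDL and at 0.082 for the interaction, Ctss was at 0.053 for oxLDL+LPS against LPS and H2-Eb1 at 0.0014 for the interaction. With quantile normalization, Ctss was at 0.094 for oxLDL+LPS against LPS and H2-Eb1 at 0.067 for the interaction. For LPS against control, H2-Aa lost its call under quantile normalization and equal sums (0.43 and 0.40) and without the filter (limma adjusted p = 0.132). Per kb of the longest transcript, control PMφs had 1168 of H2-Ab1 and 163 of H2-DMa. With each library left out, the number of the 8 genes called was 0 to 0 without the block and 2 to 5 with it for oxLDL against control, 4 to 7 and 6 to 7 for LPS against control, 0 to 0 and 0 to 6 for oxLDL+LPS against LPS, 5 to 6 and 6 to 7 for oxLDL+LPS against oxLDL, and 0 to 0 in both for the interaction. Over all genes the counts ran from 0 to 0 and 89 to 1099, from 6881 to 7690 and 6812 to 8454, from 0 to 91 and 0 to 2877, from 5838 to 6699 and 5925 to 7833, and from 0 to 6 and 0 to 122, in the same order. Small log2 values changed sign when a library was left out, with or without the block. H2-DMa ran from −0.29 to 0.14 for oxLDL against control and from −0.45 to 0.13 for oxLDL+LPS against LPS. Ctss ran from −0.11 to 0.038 for oxLDL against control, from −0.085 to 0.090 for LPS against control, from −0.14 to 0.062 for oxLDL+LPS against LPS and from −0.063 to 0.038 for oxLDL+LPS against oxLDL. For the interaction the ranges were −0.60 to 0.095 for H2-Aa, −0.58 to 0.096 for H2-Ab1, −0.49 to 0.25 for H2-Eb1, −0.32 to 0.25 for H2-DMa, −0.34 to 0.035 for H2-DMb1, −0.60 to 0.36 for Ciita and −0.095 to 0.093 for Ctss. A blocked comparison of 2 groups without a library drops its replicate number and rests on 2 pairs. With 3 libraries a group, no exact permutation p could be under 0.1. Ciita, the lowest of the 8 genes, had the largest of the standard errors given without the block, but not with the block for oxLDL+LPS against LPS.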
